A study of Rattus norvegicus with 24 samples.

Results

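The potassium channel genes of the rat midbrain were taken as every probe set whose single gene symbol in the platform annotation begins with Kcn. This gave 126 of 31042 non-control probe sets, for 75 genes. Of these, 114 probe sets, for 71 genes, reached the 20th percentile of the array on at least 3 of the 24 arrays and were tested together with the 27032 probe sets that passed the same filter. The 12 probe sets below it included the only probe sets of Kcne1, Kcnj1, Kcnmb1 and Kcnn4.

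Potassium channels let potassium leave or enter the cell along its gradient, and so set the resting potential, end the action potential and space out firing. The voltage-gated class opens on depolarization, and its pore subunits work with silent modifier subunits and with auxiliary subunits (Kcnab, Kcne and Kcnip genes). Inward rectifiers (Kcnj) hold the membrane near rest, carry the G protein-gated current of dopamine and opioid receptors in midbrain neurons, and clear potassium into glia. The two-pore class (Kcnk) passes the steady leak current. The calcium-activated class (Kcnma, Kcnmb and Kcnn, here with the related Kcnt) couples calcium or sodium entry to repolarization.

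Adult female Long–Evans rats aged 50 to 60 days either mated with a male in a paced mating chamber, which the female can leave at will, or were placed in the empty chamber. OVX/ADX rats had lost ovaries and adrenals and OVX rats the ovaries only. Both received 10 µg of estradiol benzoate subcutaneously, 44 h before the test, which was held 10 days after surgery. Intact rats kept their glands, were in proestrus by their labels and received no hormone. Their arrays fell into 2 sets, one with plain numbers as titles (number-named) and one with titles that contain Intact (Intact-named). The OVX/ADX arrays had plain numbers as titles too. Of these, 2541 and 2530 lay within the numbers of the number-named intact arrays (2526 to 2543), and 4123 to 4126 lay apart. Each of the 4 sets had 3 arrays labelled paced and 3 labelled chamber-exposed. The methods give 6 intact rats for the arrays, against 12 intact arrays here, and state that 1 OVX/ADX rat died before its surgery was finished. Whether a rat gave an array in both intact sets was not given in the sources used here. Each array held RNA from one gross dissection labelled midbrain, and the Affymetrix rat expression arrays report a log2 signal per probe set.

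The deposited values came from 3 separate normalizations, seen in the lowest signal of an array, which lay at 3.38 to 3.43 for OVX/ADX, 3.58 to 3.65 for number-named intact, and 2.3 to 2.39 for OVX and Intact-named arrays together. Levels were therefore tested only between arrays of 1 normalization. Mating fits pooled over normalizations held the set in the model, or compared mating differences between sets, with 1 estimate of spread for all their arrays. Levels across normalizations are given as the percentile of a probe set on its own array, as a description. The tissue markers did not match the midbrain label on all sets. The median percentile of the 10 midbrain dopamine neuron markers found ranged over arrays from 70.3 to 83.6 in OVX/ADX, 75.4 to 89.5 in number-named intact, 39 to 69.6 in OVX and 37.2 to 53.4 in Intact-named arrays. That of the 11 cortex and hippocampus markers was 47.8 to 51.3, 45.2 to 67.6, 79.4 to 87.7 and 85.6 to 88.7 in the same 4 sets. Th, the enzyme that begins dopamine synthesis, had a median percentile of 92.3 in OVX/ADX and 94.6 in number-named intact arrays, against 36.9 in OVX and 33.6 in Intact-named arrays. Nr4a2 of the same list went the other way, at 66.8, 68.4, 84.2 and 89.9 in the same order of sets. Tbr1 went against the rest of the cortex and hippocampus list, at 14.8, 23.5, 9.9 and 9.59. The 3′ minus 5′ signal of the beta-actin control, which grows as transcripts are shortened or incompletely copied, was 0.97 to 1.11 in OVX/ADX, 1.01 to 1.13 in number-named intact, 1.5 to 2.26 in OVX and 1.84 to 3.40 in Intact-named arrays on the log2 scale. The OVX/ADX and number-named sets thus stood on one side of both measures, and the OVX and Intact-named sets on the other. Run, tissue content and RNA measure cannot be told apart between these 2 sides of the series.

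The sequence just before the gene start is shown for 4 chosen inward rectifier and auxiliary genes, as examples. By the probe set with the highest mean signal, Kcnj10 and Kcnj16 were higher and Kcnj4 and Kcnip2 lower on OVX/ADX and number-named arrays. RefSeq start sites on the GRCr8 assembly were found for 52 of the 75 Kcn genes, in 58 windows. The 250 bases upstream are printed 5′ to 3′, with CCAAT and GGGCGG (the GC box), on either strand, in capitals. Kcnj10 lies on chr13:87334260-87334509 (+), Kcnj16 on chr10:96517074-96517323 (+), Kcnj4 on chr7:112954548-112954797 (-) and Kcnip2 on chr1:254613899-254614148 (-).
Kcnj10: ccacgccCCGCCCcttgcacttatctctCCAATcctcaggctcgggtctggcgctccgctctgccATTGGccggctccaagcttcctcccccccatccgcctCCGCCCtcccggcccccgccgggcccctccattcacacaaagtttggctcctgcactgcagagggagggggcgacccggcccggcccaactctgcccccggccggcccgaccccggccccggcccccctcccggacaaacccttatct
Kcnj16: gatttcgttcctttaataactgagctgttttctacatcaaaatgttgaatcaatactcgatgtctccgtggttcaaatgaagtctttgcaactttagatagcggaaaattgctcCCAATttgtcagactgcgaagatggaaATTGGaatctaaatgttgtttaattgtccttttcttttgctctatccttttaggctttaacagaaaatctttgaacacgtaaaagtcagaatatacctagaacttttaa
Kcnj4: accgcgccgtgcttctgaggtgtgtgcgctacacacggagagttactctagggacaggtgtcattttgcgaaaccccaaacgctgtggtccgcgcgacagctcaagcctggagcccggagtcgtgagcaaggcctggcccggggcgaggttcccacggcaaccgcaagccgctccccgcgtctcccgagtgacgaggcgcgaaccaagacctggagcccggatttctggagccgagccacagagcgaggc
Kcnip2: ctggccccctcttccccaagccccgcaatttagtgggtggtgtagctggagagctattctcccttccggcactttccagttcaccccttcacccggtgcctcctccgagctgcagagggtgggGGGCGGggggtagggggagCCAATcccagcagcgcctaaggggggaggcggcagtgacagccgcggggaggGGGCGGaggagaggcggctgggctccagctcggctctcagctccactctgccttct
Kcnj10 and Kcnj16, whose levels moved alike, differed in base composition, with 72.4% and 33.6% G and C. Kcnj4 and Kcnip2 had 65.6% and 68.0%. A GC box was present in 32 of the 58 Kcn windows (55.2%), against 30.5% of all 33469 windows, and CCAAT in 16 (27.6%), against 34% of all. TATAAA was present in 2 Kcn windows (3.45%, Kcnj1 and Kcnj13), against 12.9% of all. The full cAMP response element TGACGTCA was in 0 Kcn windows and 1.59% of all, and the full palindromic estrogen response element in 0 Kcn windows and 0.0239% of all. A median Kcn window held 62.8% G and C and a median window of all genes 51.2%. These are matches of letters within these windows only.

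Across the 2 sides of the series, Kcn probe sets split almost evenly between higher and lower. The percentile ranges of the 12 OVX/ADX and number-named arrays and the 12 OVX and Intact-named arrays did not overlap for 30 of 114 probe sets that were higher (26.3%, against 20.1% of all probe sets tested) and 28 that were lower (24.6%, against 21.2% of all). Some genes were under the 20th percentile on every array of their lower side and passed the filter only through the other side. Their lack of overlap is therefore not independent of the filter. Among them were Kcna3, Kcng3, Kcnh8, Kcnj2, Kcnj10 and Kcnk9, which were higher, and Kcnv2 and a second probe set of Kcne2, which were lower. A bulk signal does not tell fewer cells of a type from less RNA per cell. Using 1 probe set per gene, that with the highest mean signal, 13 of 71 genes were higher and 22 lower without overlap. By class, this was 3 higher and 10 lower of 31 voltage-gated pore and modifier genes, 0 higher and 5 lower of 10 auxiliary genes, 4 higher and 5 lower of 14 inward rectifiers, 5 higher and 0 lower of 11 two-pore genes, and 1 higher and 2 lower of 5 calcium-activated genes. No share over all genes, each read by 1 probe set, is available for these gene counts, so they are a description only. The median gene difference, in percentile points, was -3 for pore genes, -4.54 for auxiliary genes, -2.49 for inward rectifiers, 8.33 for two-pore genes and -8.13 for calcium-activated genes, against -0.283 over all probe sets. With every probe set of each gene counted, the medians for pore, auxiliary and inward rectifier probe sets were -0.154, 0.137 and 1.12.

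**Figure D1:**
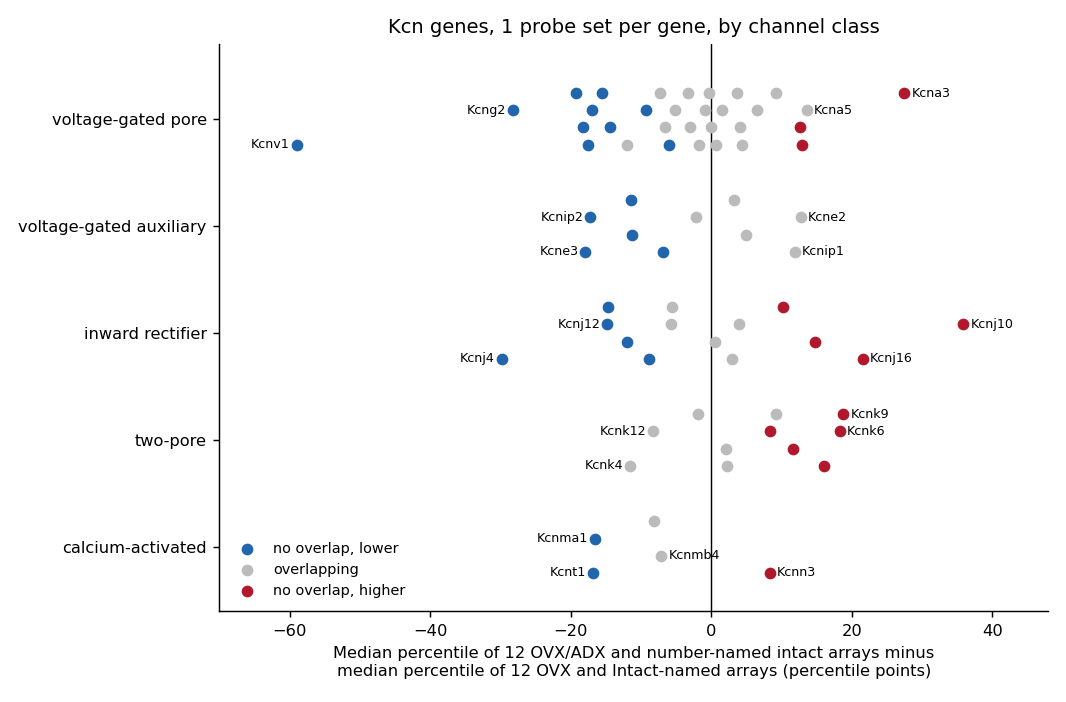
Difference in median percentile of each Kcn gene (x axis, percentile points), as the 12 OVX/ADX and number-named intact arrays minus the 12 OVX and Intact-named arrays, 1 point per gene in 5 channel classes. Red and blue points are genes whose array ranges did not overlap, and Kcnv1 at -59 and Kcnj10 at 35.9 lie at the ends.

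Among the voltage-gated genes, silent modifier subunits do not form channels alone but alter those of other subunits. Grouped only after the values were seen, 6 of the 7 such genes (Kcng2, Kcns1, Kcns2, Kcns3, Kcnv1 and Kcnv2) were lower on OVX/ADX and number-named arrays without overlap (21.2% of all probe sets) and Kcng3 was higher (20.1% of all), a description of a chosen group. Of these, Kcnv2 (3.19 to 9.24, against 18.9 to 23.1) and Kcng3 passed the filter only through the side where they were higher. Kcnv1 differed most of all Kcn genes. Its lowest, median and highest percentiles were 23.5, 26.1 and 28 in OVX/ADX, 28.7, 37.7 and 58 in number-named intact, 82, 86.1 and 90.3 in OVX, and 82, 91.1 and 93.8 in Intact-named arrays. The difference in medians between the 2 sides was -59 percentile points, or -4.03 in the mean quantile-normalized log2 signal, with no array of one side inside the range of the other. The single number-named array at 58 was paced array 2543, and the other 5 arrays of that set ended at 38.7. Kcng2 was at 50.3 to 52.9 in OVX/ADX and 48.2 to 60.9 in number-named intact, against 68.5 to 82.6 in OVX and 74.9 to 86.8 in Intact-named arrays. Kcns1 differed by -19.2, Kcns2 by -17.6, Kcnv2 by -15.5 and Kcns3 by -14.4 percentile points. Pore genes lower without overlap also included Kcnq5, a subunit of the M current that restrains repeated firing (-18.2), Kcnh3 of the ether-à-go-go family (-17), Kcnd1 (-9.28), and Kcna1 of axonal channels (-5.97).

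By the brightest probe set, fewer pore genes were higher on OVX/ADX and number-named arrays without overlap than were lower (3 against 10). Over all 46 pore probe sets this did not hold, with 13 higher (28.3%, against 20.1% of all) and 11 lower (23.9%, against 21.2% of all). Several pore genes changed with the probe set read. Kcna3, a delayed rectifier also known from immune cells, was at 33.2 to 37 in OVX/ADX and 42.1 to 46.2 in number-named intact, against 10.9 to 12.6 in OVX and 8.01 to 14.9 in Intact-named arrays. Kcng3 (12.9) and Kcnh8 (12.6) were the other 2 by the probe set with the highest mean, and Kcna5 (13.6) overlapped. Kcnc2, whose fast channels serve rapid-firing interneurons, had 6 probe sets. Its probe set 1370558_a_at was at 72 to 84.2 in OVX/ADX and 63.5 to 74.7 in number-named intact, against 13.5 to 29.2 in OVX and 6.07 to 20.1 in Intact-named arrays, which placed the 2 sides 56.2 points apart. The probe sets 1388225_at (45.4), 1370557_a_at (28.2) and 1371200_at (10.1) also did not overlap. The brightest, 1370439_a_at, was at 98 to 99.2, 96.2 to 98, 93.6 to 97.9 and 92.2 to 95.1 in the same 4 sets and overlapped, as did 1370559_at. The Kcnc2 difference thus lay between 3.64 and 56.2 points by probe set, in one direction for all 6. Dimmer probe sets of Kcna2 (22.1), Kcnq3 (21.4), Kcna6 (20.5) and Kcnc4 (11) were also higher without overlap, where the brightest probe set of each gene overlapped. Kcnd2 and Kcnd3, pore subunits of the fast A-type current, stood at -0.283 and -0.0258 by the brightest probe set and overlapped, while a dimmer Kcnd3 probe set was 6.38 higher without overlap.

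**Figure D2:**
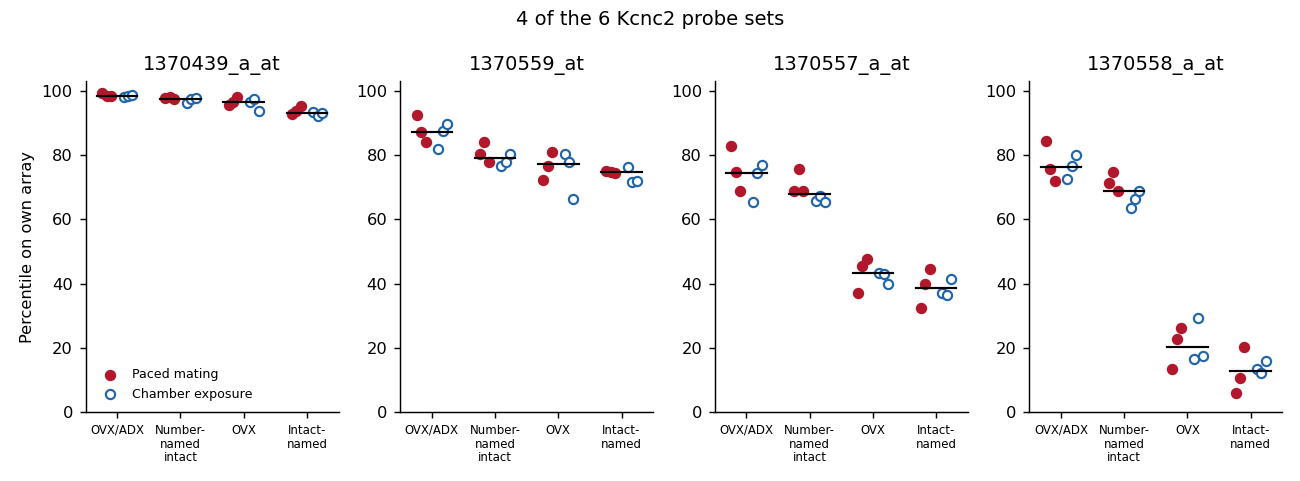
Percentile of 4 Kcnc2 probe sets on their own array (y axis), 6 arrays per set, with filled red points for paced and open blue points for chamber-exposed arrays and a black line at the set median. The OVX/ADX and number-named sets stand above the other sets without overlap for 1370557_a_at and 1370558_a_at, and overlap them for 1370439_a_at and 1370559_at.

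Of the auxiliary genes, 5 of 10 were lower without overlap and 0 higher by the brightest probe set. Kcnab1, a cytoplasmic beta subunit that speeds inactivation of Kcna channels, was at 83.5 to 88.5 in OVX/ADX and 77.2 to 87.2 in number-named intact, against 94.4 to 96.7 in OVX and 94.5 to 96 in Intact-named arrays. Kcnip2 and Kcnip3, calcium-binding partners of Kcnd channels, were at 73.2 to 85.3 and 77 to 83.9 over the OVX/ADX and number-named arrays, against 86.4 to 94.4 and 88 to 92.9 over the OVX and Intact-named arrays. Kcne3 (-17.9) and Kcnab2 (-6.85) were the other 2. The second tested probe sets of Kcnab1 (8.86), Kcnip2 (2.03), Kcnip3 (-1.76) and Kcne3 (-2.55) overlapped, that of Kcnab1 and that of Kcnip2 in the other direction. Over all 20 auxiliary probe sets 7 were lower without overlap (35%, against 21.2% of all), among them second probe sets of Kcnab2 (-21.9) and Kcne2 (-13.3). That of Kcne2 (2.07 to 10.2, against 11.1 to 41.3) passed the filter only through the side where it was higher, so its lack of overlap is not independent of the filter. A further 3 were higher (15%, against 20.1% of all). Of these, Kcnip1 (1370781_a_at, 26.4) and Kcnip4 (1370595_a_at, 20.1) had dimmer probe sets that were higher without overlap, while the brightest probe sets of both overlapped (11.9 and 3.26), and the other was of Kcnab2 (8.22). The brightest probe sets of Kcne2 (12.8) and Kcnab3 (4.97) overlapped.

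Of the inward rectifiers, the pair known from glia was higher on OVX/ADX and number-named arrays. Kcnj10, the main potassium-buffering channel of astrocytes and oligodendrocytes, was at 41 to 44.9 in OVX/ADX and 47 to 60.2 in number-named intact, against 7.56 to 12.1 in OVX and 8.93 to 10.2 in Intact-named arrays. The 2 sides lay 35.9 points apart, the most of the 71 Kcn genes in the higher direction by the brightest probe set. Kcnj16, which joins Kcnj10 in glia, was at 87.5 to 89.9 and 90.7 to 92.6, against 62.9 to 86.3 and 49.3 to 70.1 in the same order of sets, and its second probe set differed by 33.1 points. The median percentile of the 6 astrocyte markers, already near the top of the scale, was 98.6 to 99.3 in OVX/ADX, 99.1 to 99.3 in number-named intact, 98.5 to 99 in OVX and 98 to 99.1 in Intact-named arrays. Of these markers, 3 were higher without overlap (20.1% of all probe sets) and 0 lower (21.2% of all). They were Aqp4 (0.883 points), Slc1a3 (1.25) and Aldoc (0.364). Of 5 oligodendrocyte markers, 0 were higher and 0 lower without overlap. The part of glial content in the Kcnj10 and Kcnj16 values was not tested. Kcnj4, a strong rectifier of forebrain neurons, went the other way, at 36.6 to 40.4 in OVX/ADX and 42 to 50 in number-named intact, against 65.3 to 71 in OVX and 66.4 to 76.1 in Intact-named arrays. Its second probe set was 53.2 points lower, and Kcnj12 (-14.8) and Kcnj14 (-14.7) were also lower without overlap, while Kcnj2, of the same strongly rectifying group, was 10.2 higher. A probe set of Kcnj11, the pore of ATP-sensitive channels, was 8.86 lower and another 12 higher, while Kcnj8, its vascular relative, overlapped (0.612).

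The G protein-gated family, through which dopamine and GABA-B receptors slow midbrain neurons, was not uniform. Kcnj9 was higher on OVX/ADX (41.4 to 53.1) and number-named arrays (42.8 to 47.2) than on OVX (23.2 to 38.6) and Intact-named arrays (19.9 to 30.5), a difference of 14.8 points. The brightest probe set of Kcnj6 was 12 points lower without overlap, at 78.3 to 85.7 over the OVX/ADX and number-named arrays, against 89.4 to 95.4 over the OVX and Intact-named arrays. Its 3 other probe sets were 30.5 lower (no overlap), 6.57 higher and 13.2 higher (both overlapping). The brightest probe sets of Kcnj3 and Kcnj5 differed by 3.98 and 3.01, both overlapping. A dimmer Kcnj3 probe set was 14.7 points higher without overlap, at 37.9 to 47.7 over the OVX/ADX and number-named arrays, against 24.2 to 31.7 over the OVX and Intact-named arrays.

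Of the 11 two-pore genes, 5 were higher and 0 lower without overlap by the brightest probe set, while the differences of 8 were above zero and of 3 below. By probe set, 6 of 15 were higher (40%, against 20.1% of all) and 1 was lower (6.67%, against 21.2% of all). Kcnk9, an acid-sensitive leak channel, was at 32.7 to 37.9 in OVX/ADX and 31.3 to 38.7 in number-named intact, against 10.4 to 17 in OVX and 11.9 to 18.5 in Intact-named arrays (18.8 points). Kcnk2, a leak channel gated by stretch and lipids, was at 79 to 83.4 over the OVX/ADX and number-named arrays, against 59.7 to 76.5 over the OVX and Intact-named arrays (16.1 points). Kcnk6 (18.3), Kcnk1 (11.7) and Kcnk10 (8.33) were also higher without overlap, and Kcnk3 (9.24) overlapped. The 3 below zero, Kcnk4 (-11.5), Kcnk12 (-8.26) and Kcnk5 (-1.84), overlapped too. A second Kcnk6 probe set was 16 points lower without overlap. Kcnk6, Kcnab2, Kcnj11 and Kcnq5 were the 4 of 28 genes with several tested probe sets in which probe sets moved in opposite directions without overlap. No share over all genes is available for this count.

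In the calcium-activated class, Kcnma1, the pore of the large-conductance channel, was at 70.1 to 81 in OVX/ADX and 63.6 to 75.4 in number-named intact, against 83.1 to 89 in OVX and 87.7 to 90.1 in Intact-named arrays (-16.6 points), while its other probe sets overlapped. Kcnt1, a sodium-activated relative, was 16.8 lower by its brightest probe set. Kcnn1, another small-conductance channel (-8.13), and Kcnmb4, the beta subunit of neuronal large-conductance channels (-7.09), overlapped. Kcnn3, a small-conductance channel known for pacing dopamine neurons, was the only gene of the class that was higher (37.1 to 45, against 23.9 to 36.1 and 8.33 points). The part of tissue content, run and the 3′ minus 5′ measure in any of these level differences was not tested.

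**Figure D3:**
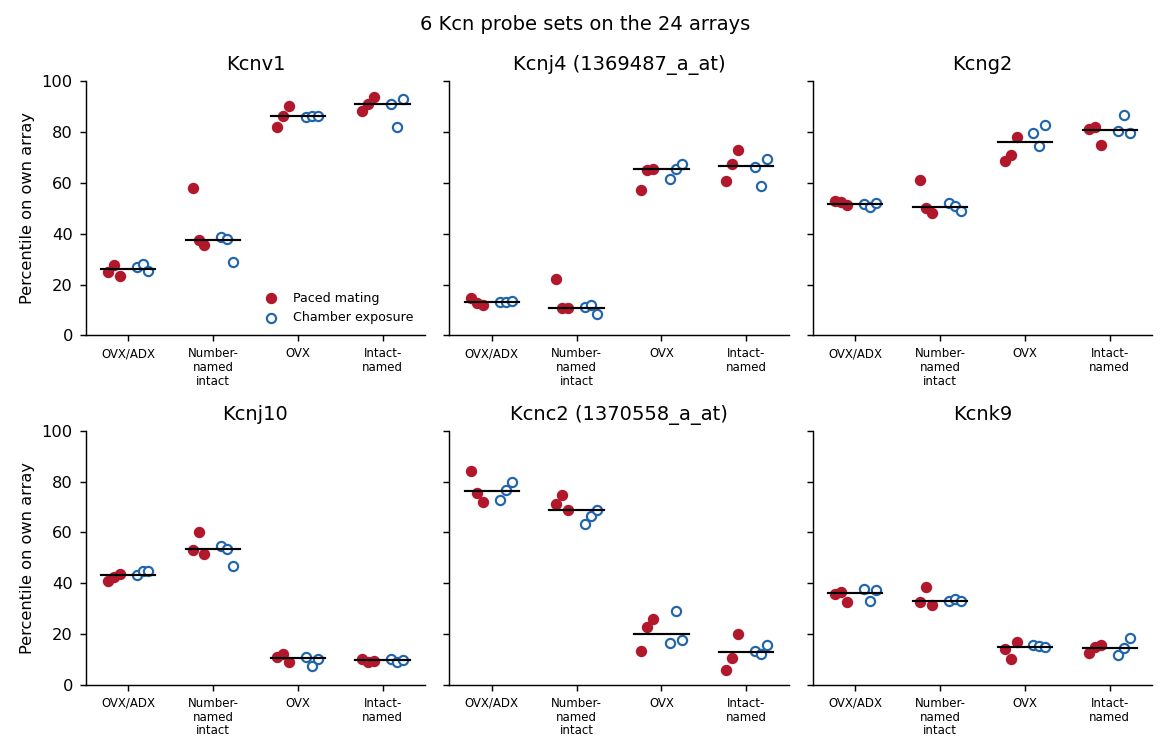
Percentile of 6 Kcn probe sets on their own array (y axis) in the 4 sets, with filled red points for paced and open blue points for chamber-exposed arrays and a black line at the set median. Kcnv1, Kcnj4 and Kcng2 are lower, and Kcnj10, Kcnc2 and Kcnk9 higher, on all OVX/ADX and number-named arrays than on any OVX or Intact-named array.

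The 2 intact sets differed in many Kcn probe sets, although the gland state was the same. Between number-named and Intact-named arrays, 44 of 114 Kcn probe sets were higher without overlap (38.6%, against 30.5% of all) and 41 lower (36%, against 33.2% of all). Between OVX/ADX and number-named arrays, 21 were higher (18.4%, against 23.4% of all) and 20 lower (17.5%, against 21.6% of all). These 2 sets came from different runs, and loss of the glands, surgery, estradiol benzoate and run cannot be told apart. Kcnj10 was lower in OVX/ADX than in number-named arrays without overlap, as the ranges above show, and Kcnk6 was too (33.1 to 36.1, against 44.3 to 48.1).

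Gland removal could be tested only between the 6 OVX and the 6 Intact-named arrays, whose lowest signals point to 1 shared normalization. The OVX rats had also had surgery and estradiol benzoate, while the Intact-named rats had neither and were labelled proestrous. The titles of these 2 sets differ in prefix as well. Gland state, surgery, estradiol benzoate, cycle stage and whatever the prefix stands for cannot be told apart. In this comparison, 2 of 114 Kcn probe sets passed an adjusted p of 0.05 (limma, Benjamini-Hochberg over 27032 probe sets), both auxiliary subunits and both higher in OVX, against 0.988% of all probe sets. At an unadjusted p under 0.05 there were 32, of which 20 were higher and 12 lower, or 28.1% against 20.4% of all. The ranges did not overlap for 1 Kcn probe set that was higher, Kcnab3 (0.969% of all), and 1 that was lower, the 1369034_at probe set of Kcnj6 (1.48% of all).

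Kcnab3, a beta subunit of Kcna channels, had log2 signals of 7.85, 7.43 and 7.26 on paced and 7.34, 7.25 and 7.07 on chamber-exposed OVX arrays, against 6.11, 6.45 and 7.0 on paced and 6.32, 6.54 and 6.98 on chamber-exposed Intact-named arrays. Every OVX array was above every Intact-named array, the closest being Intact-5 at 7.0 and OVX-6 at 7.07. The difference was 0.80 ± 0.16 (SE, n = 6 each, limma adjusted p = 0.0496), with an exact two-sided permutation p of 0.005 within mating labels, the smallest that 400 arrangements can give. The permutation p is unadjusted. It is given only for probe sets already called on these same arrays, so it adds no separate support. Within the Intact-named set the beta-actin 3′ minus 5′ signal was highest on Intact-1 (3.40), where Kcnab3 was lowest, and lowest on Intact-5 (1.84), where Kcnab3 was highest. The Gapdh control ran the same way (1.34 and 0.41). The hexokinase control ran the other way, lowest on Intact-1 (1.67) and highest on Intact-5 (2.43). Hexokinase was at 1.97 to 2.33 over OVX and 1.67 to 2.43 over Intact-named arrays. With the beta-actin signal as a covariate, an alternative added after the data were seen, the Kcnab3 difference was 0.56 and its limma adjusted p 0.131. Without Intact-1 and Intact-2 the difference was 0.62 and the limma adjusted p 0.128. The part of RNA length in the difference was not tested beyond these values.

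Kcne2, a single-pass subunit abundant in choroid plexus, had log2 signals of 5.62, 5.26 and 5.70 on paced and 6.14, 6.17 and 6.38 on chamber-exposed OVX arrays, against 5.25, 5.38 and 5.29 on paced and 5.57, 4.97 and 5.49 on chamber-exposed Intact-named arrays. The chamber-exposed OVX arrays were above all Intact-named arrays, and the paced OVX arrays overlapped them. The difference was 0.55 ± 0.11 (SE, n = 6 each, limma adjusted p = 0.0496, exact two-sided permutation p = 0.015). As for Kcnab3, the permutation p is unadjusted and was taken after the call, so it adds no separate support. The median log2 signal of the 5 choroid plexus markers was 7.29 to 8.70 over OVX and 6.10 to 8.19 over Intact-named arrays, and all 5 were higher in OVX (median difference 0.71, 0 called by limma). Kcnj13, the inward rectifier of choroid plexus epithelium, did not share this, at 5.99 to 6.46 in OVX and 6.03 to 6.58 in Intact-named arrays. With the marker median as a covariate, Kcne2 differed by 0.48 (limma adjusted p = 0.0865). The second tested Kcne2 probe set differed by 0.16 ± 0.33 (limma adjusted p = 0.819).

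**Figure D4:**
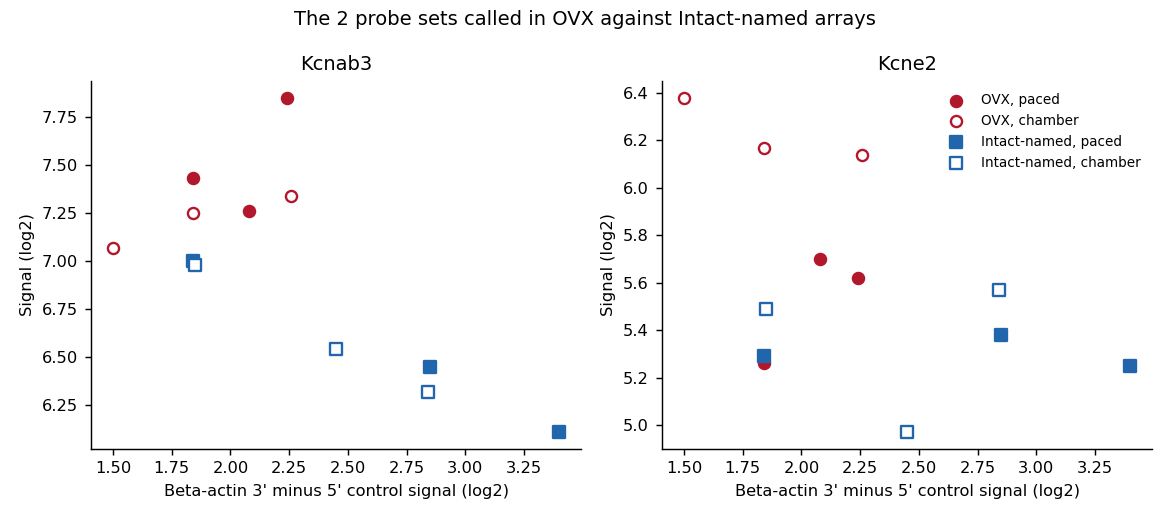
Log2 signal of Kcnab3 and Kcne2 (y axes) against the beta-actin 3′ minus 5′ control signal of the same array (x axes, log2), with red circles for the 6 OVX and blue squares for the 6 Intact-named arrays, filled for paced and open for chamber-exposed. Intact-named arrays reach 3.40 on the x axis, beyond the highest OVX array at 2.26.

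Both calls lay at the threshold. Leaving out single arrays moved the limma adjusted p to between 0.0257 and 0.141 for Kcnab3, which stayed called without Intact-5 or Intact-6 only, and to between 0.0468 and 0.127 for Kcne2, which stayed called without Intact-5 or OVX-3 only. With the array number as a replicate block neither was called (adjusted p = 0.0832 for Kcnab3 and 0.109 for Kcne2, limma). No Kcn probe set was called by the unmoderated test. Among others with small p, Kcnh2 differed by 0.43 ± 0.10 (limma adjusted p = 0.0654) and Kcnc2 by 0.61 ± 0.17 (limma adjusted p = 0.0988). Kcnj16 differed by 1.08 ± 0.31 (limma adjusted p = 0.106), and by 0.80 ± 0.21 at its second probe set (limma adjusted p = 0.0861). Kcnj6 at 1369034_at differed by -0.50 ± 0.12 (limma adjusted p = 0.0753). By class, the unadjusted p was under 0.05 for 14 of 46 pore probe sets, 6 of 20 auxiliary, 8 of 24 inward rectifier, 3 of 15 two-pore and 1 of 9 calcium-activated probe sets. Region markers differed between these 12 arrays as well. All 6 thalamus markers were higher in OVX (median 1.21, 1 called), 7 of 7 striatum markers lower (-0.59) and 8 of 11 cortex and hippocampus markers lower (-0.20, 1 called). Higher in OVX were 5 of 6 cerebellum markers (0.93, 1 called) and 8 of 9 dopamine neuron markers (0.27). The part of these markers was not tested. Of 21 measured partners of potassium channels (Hcn pacemaker channels, sulfonylurea receptors, anchoring and scaffold proteins), 11 were higher and 10 lower in OVX. Of these, 0 were called higher and 1 was called lower, against 0.988% of all probe sets called. The called partner was Akap5, a postsynaptic kinase anchor, which differed by -1.09 ± 0.14 (SE, limma adjusted p = 0.0236).

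Paced mating was set against chamber exposure in each set. No Kcn probe set passed the adjusted threshold (limma) in any set, and the unmoderated test called 0 as well. All probe sets gave 0% called in OVX/ADX, 0.0444% in number-named intact, 0% in OVX and 0.0259% in Intact-named arrays. At an unadjusted p under 0.05 there were 2 Kcn probe sets in OVX/ADX (1.75%, against 2.47% of all), 17 in number-named intact (14.9%, against 9.33% of all), 7 in OVX (6.14%, against 1.68% of all) and 7 in Intact-named arrays (6.14%, against 10.7% of all). Kcn differences ran from -0.35 to 0.38 in OVX/ADX, -0.39 to 0.58 in number-named intact, -1.20 to 0.49 in OVX and -1.01 to 0.43 in Intact-named arrays. In the number-named set the anterior pituitary markers ran opposite to the direction the study gives for such genes in mated intact rats. The labels were used as given, and the sign of each number-named mating difference rests on them.

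In OVX/ADX rats the smallest p belonged to Kcnab3, at 7.0, 6.86 and 6.97 on paced and 7.26, 7.14 and 7.26 on chamber-exposed arrays, which did not overlap (-0.28 ± 0.07, limma adjusted p = 1). Kcng2 at 1390473_at (0.15) and Kcnk6 at 1387264_at (0.16) followed. In number-named intact rats it belonged to Kcnh8, at 5.91, 5.93 and 5.96 on paced and 6.18, 6.23 and 6.41 on chamber-exposed arrays (-0.34 ± 0.07, limma adjusted p = 0.167). Here 88 of 114 Kcn probe sets were higher on the paced arrays (median 0.085), against 15118 of 27032 overall (median 0.014). On the same arrays 11 of 11 cortex and hippocampus markers were higher (median 0.26), 9 of 9 dopamine neuron markers lower (-0.37) and 11 of 11 anterior pituitary markers lower (-2.17, 1 called), and the part of these in the Kcn values was not tested.

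In OVX rats the smallest p belonged to Kcne2, whose 3 paced arrays, given above, were all below the 3 chamber-exposed arrays (-0.70 ± 0.16, limma adjusted p = 1), and its second tested probe set differed by -1.20 ± 0.47. The 5 choroid plexus markers were all lower on paced OVX arrays (median -1.33, 0 called), and their part was not tested. Kcng2 at 1390473_at differed by -0.53 ± 0.20. In Intact-named arrays the smallest p belonged to 1 of 4 Kcnab2 probe sets, 1391203_at, at 6.89, 7.06 and 7.41 on paced and 8.23, 8.46 and 7.73 on chamber-exposed arrays (-1.01 ± 0.18, limma adjusted p = 0.107). The other 3 Kcnab2 probe sets differed by 0.01, -0.16 and -0.07 on the same arrays, so the gene was not read alike. Kcnj5 (0.22 ± 0.07) and Kcne4 (-0.48 ± 0.18) followed.

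**Figure D5:**
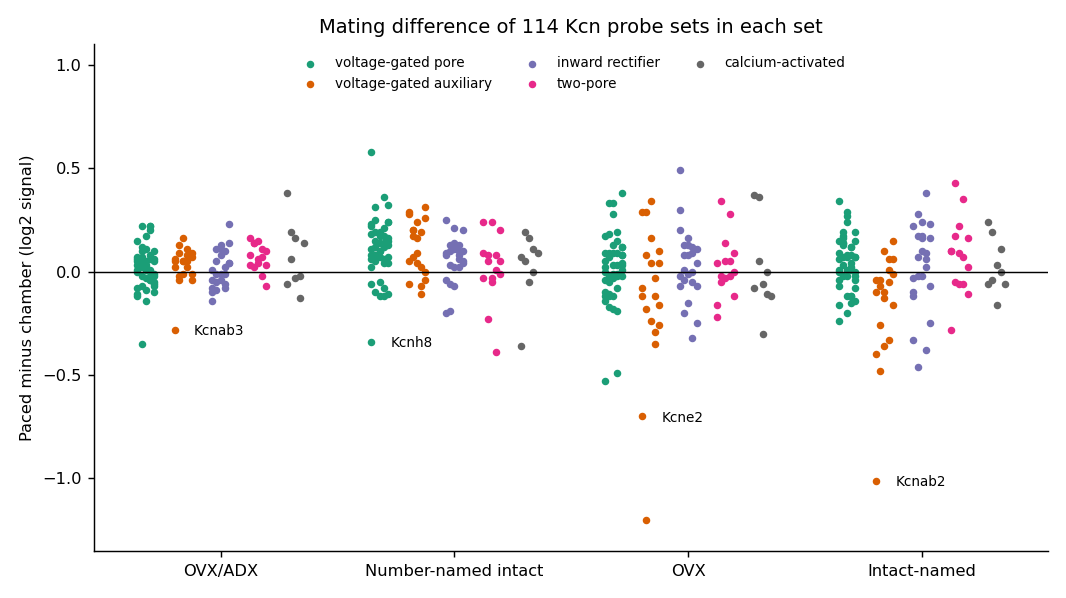
Paced minus chamber-exposed difference of the 114 tested Kcn probe sets (y axis, log2 signal) in the 4 sets, coloured by channel class, with the probe set of smallest p named. The lowest point is a Kcne2 probe set at -1.20 in OVX, and none of the 114 passed the adjusted threshold.

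Pooling sets did not yield a call. Over the 12 intact arrays, with title set in the model, 0 Kcn probe sets were called (0% of all) and 6 had an unadjusted p under 0.05 (5.26%, against 7.72% of all). Over all 24 arrays, with set in the model, 0 were called (0% of all) and 6 had an unadjusted p under 0.05 (5.26%, against 4.2% of all). Kcnk3, an acid-sensitive leak channel, had the smallest p in both, with 0.31 ± 0.09 (limma adjusted p = 0.614) and 0.26 ± 0.08 (limma adjusted p = 0.969). Its difference was 0.07 in OVX/ADX, 0.20 in number-named intact, 0.34 in OVX and 0.43 in Intact-named arrays, and was positive in all 4 sets. The other tested Kcnk3 probe sets differed by 0.13 and -0.04 over the 24 arrays. Kcnj12, a strong rectifier, was next over the 24 arrays (0.18, adjusted p = 0.969 by limma).

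The mating difference was also compared between sets of 1 fit, of which number-named and Intact-named arrays came from different normalizations. Between number-named and Intact-named arrays 0 Kcn probe sets were called (0.0814% of all) and 5 had an unadjusted p under 0.05 (4.39%, against 10.6% of all). Kcnab2 at 1391203_at differed most (1.21 ± 0.25, limma adjusted p = 0.103). Between OVX and Intact-named arrays 0 were called (0.0074% of all) and 3 had an unadjusted p under 0.05 (2.63%, against 4.95% of all). Kcnab2 at 1391203_at (1.09 ± 0.25, limma adjusted p = 0.839) and Kcne2 (-0.67 ± 0.22, limma adjusted p = 0.871) had the smallest p. The unmoderated test called 0 Kcn probe sets in both.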

How the data were processed

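The authors deposited 1 table of log2 signals for 31099 probe sets on 24 arrays, made per the labels with RMA in Affymetrix Expression Console 1.4, while the study's methods describe GCRMA. RMA normalizes only the arrays of 1 run to each other, so values of different runs share no scale. The number of arrays limits the precision. Symbols came from the platform annotation (20826 probe sets with 1 symbol, 436 with several, 9780 with none), and 57 control probe sets were left out of the tests. Groups came from the labels. The methods give 3 rats per mating label and gland group, which would account for 6 of the 12 intact arrays, and a p-value reflects only how these arrays vary. Limma 3.58.1 in R 4.3.3 (lmFit, eBayes, Benjamini-Hochberg over all tested probe sets) was run for 9 comparisons. Arrays of the OVX and Intact-named sets also differ in title prefix. Named are the called probe sets or, with none, the 3 of smallest p, the 3 genes per class with the largest level difference in each direction, and a list of channels of known role. Members and lists were chosen with earlier results of these data known. Fits were tested on simulated data. Alternatives changed the filter, normalization, moderation, weights, blocks and arrays. Promoter windows were from RefSeq.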

Additional observations from a re-analysis of the deposited data

Results flagged for a closer look

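Of 232 groups of 6 arrays, each 1 named Kcn probe set in 1 set, 19 had a highest or lowest array set apart from the other 5 by more than Dixon's 95% limit for 6 values, and chance flags about 1 group in 20. Values are log2 signals, with the nearest array after each. Number-named paced array 2543 accounted for 6 of them: it was highest for Kcnv1 (7.88, nearest 6.58), Kcng2 (8.07 against 7.48, and 7.38 against 7.02 at the second probe set), Kcnip2 (9.81 against 9.07), Kcnj3 (8.19 against 7.81) and Kcnj6 (9.84 against 9.57). For Kcnv1, Kcng2, Kcnip2 and Kcnj6 this was toward the OVX and Intact-named level. Number-named paced array 2538 was highest for Kcnk9 (6.56 against 6.25), Kcnj8 (6.81 against 6.29) and Kcna1 (10.24 against 9.92). Other number-named arrays stood apart for Kcna5 (7.14 on 2539, nearest 6.85) and Kcnd3 (9.91 on 2531, nearest 9.61). In the OVX/ADX set, array 4125 was highest for the dimmer Kcne2 probe set (4.28 against 4.04).

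In the OVX set, OVX-5 was highest for Kcns1 (8.11 against 7.29) and Kcna1 (10.91 against 10.63), OVX-6 highest for the dimmer Kcnk6 probe set (6.5 against 6.21), and OVX-1 lowest for Kcnma1 (9.55 against 9.93). In the Intact-named set, Intact-4 was lowest for Kcnj4 (8.32 against 8.80) and Kcna2 (11.81), and Intact-5 highest for Kcnc1 (10.94 against 10.83). No cause of these values was tested.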

How the results depend on the processing

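Of 249 alternative values of the comparisons, 221 stayed on their side of the limit set for them, 28 moved and 0 called values changed sign. Of the class medians, which had no test, 2 changed sign. The 2 Kcn calls of OVX against Intact-named arrays became 0 with no filter, quantile normalization, median subtraction, the unmoderated test, the beta-actin covariate, or without Intact-1 and Intact-2. They became 1 with the filter at the 50th percentile and 30 with array weights. Leaving out 1 array gave 0 to 3 calls. With the array number as a replicate block 2 were called, and Kcnab3 and Kcne2 were not among them. Same-numbered arrays had correlations of 0.31, 0.07, 0.04, 0.02, 0.05 and 0.17. Without values for other pairs of arrays, these cannot settle whether same-numbered arrays share more than a number. The choroid plexus covariate gave 3 calls. The covariates and the removal of 2 arrays were chosen after seeing the data.

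Mating gave 0 Kcn calls in every set and setting except the Intact-named set, with 5 under array weights and 0 to 1 without single arrays (1 without Intact-5 or Intact-6). Mating by title set gave 5 under array weights and 0 to 3 without single arrays (3 without Intact-5, 1 without Intact-6). For levels across sets, the filter at the 50th percentile left 17 probe sets higher and 22 lower of 70. The other settings gave 29 to 32 higher and 28 to 30 lower. Counting all probe sets of each gene moved the class medians to -0.154 for pore, and to the other sign for auxiliary (0.137, against -4.54) and inward rectifier genes (1.12, against -2.49). The cause of these shifts was not tested beyond the number of probe sets or arrays entering each fit.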
